A study of Rattus norvegicus with 15 samples.

Results

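Rat spermatogonial stem cells given glial cell line-derived neurotrophic factor (GDNF) again for 2 h, after 18 h without it, were set against control cells kept in GDNF throughout. The members are all 3 arrays of 2 h GDNF replacement and all 3 control arrays, taken by their sample titles, which makes 6 of the 15 arrays of the series. The other 9 arrays, 3 each, held cells withdrawn from GDNF for 18 h with none returned, and cells given it back for 4 h or for 8 h, and their levels are shown beside the pair. Every culture had grown in defined serum-free medium with GDNF for about 1 month before treatment, and each array stands for an independent culture. All groups shared this medium and the earlier GDNF exposure, and no strain, passage or donor was given in the labels. The 2 h arrays differ from the control arrays in the withdrawal as well as in the return, so the effects of losing and of regaining GDNF cannot be told apart within this pair, and no mock-handled control is among the groups.

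Spermatogonial stem cells are the germ cells at the base of the seminiferous tubule that both renew themselves and give rise to sperm. GDNF, made in the testis mainly by Sertoli cells, binds the co-receptor GFRA1 and signals through the receptor tyrosine kinase RET to the SRC family, PI3K-AKT and RAS-ERK pathways. In many cell types a growth factor given after deprivation first switches on immediate early genes, which need no new protein synthesis, and these encode transcription factors and short-lived feedback inhibitors. In cultured mouse spermatogonia GDNF is known to hold up Bcl6b, Etv5 and Lhx1, which self-renewal needs.

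The 3 immediate early genes with the largest rise at 2 h and a RefSeq promoter entry were Egr2, Fosb and Junb, and the 250 bases before each start are shown because immediate early genes are the group the results turn on. Coordinates are on RefSeq assembly GRCr8, Egr2 at chr20:21054442-21054691 on the minus strand, Fosb at chr1:88089185-88089434 on the minus strand and Junb at chr19:40080876-40081125 on the plus strand. Each is written 5′ to 3′ along its gene, with capitals at the SRF CArG box and at TGACG, the core of the cAMP response element (CRE), here called the CRE short site, on either strand.
Egr2: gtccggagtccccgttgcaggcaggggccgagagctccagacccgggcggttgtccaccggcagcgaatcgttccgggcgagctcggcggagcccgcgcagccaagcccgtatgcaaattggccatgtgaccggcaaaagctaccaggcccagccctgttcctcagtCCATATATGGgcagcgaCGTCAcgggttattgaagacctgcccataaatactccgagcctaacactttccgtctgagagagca
Fosb: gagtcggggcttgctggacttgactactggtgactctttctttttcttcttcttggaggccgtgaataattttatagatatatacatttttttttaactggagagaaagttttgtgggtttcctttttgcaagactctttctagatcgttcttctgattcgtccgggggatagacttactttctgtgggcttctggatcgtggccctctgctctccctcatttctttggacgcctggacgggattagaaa
Junb: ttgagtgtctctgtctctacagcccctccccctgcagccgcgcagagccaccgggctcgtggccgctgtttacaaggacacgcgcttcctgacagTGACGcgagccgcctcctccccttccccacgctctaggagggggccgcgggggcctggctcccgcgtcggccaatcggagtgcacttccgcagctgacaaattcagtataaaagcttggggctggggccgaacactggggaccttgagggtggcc

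In Egr2 the CArG box, the element bound by serum response factor, lay at −83 to −74 from the start and a CRE short site at −66 to −62. Junb held a CRE short site at −155 to −151, and the Fosb window held neither motif. Among the 14 immediate early genes higher at 2 h, 12 had a promoter entry. Of these, 4 held a CArG box (33.3%: Egr1, Egr2, Srf and Zfp36), against 1.25% of the 7669 tested genes with an entry and 1.5% of all 33469 windows. The short site TGACG was in 8 (66.7%), against 30.8% of the tested genes and 18.2% of all windows. The full element TGACGTCA, which contains the short site and so overlaps it, was in 3 (25.0%), against 3.39% and 1.59%. The EGR1 core GCGGGGGCG was in 3 (25.0%), against 5.09% and 2.45%, and the AP-1 site TGANTCA in 0 of 12, against 4.02% and 6.34%. The immediate early genes that did not rise held some of these motifs at similar shares. Of the 4 that did not pass and had an entry, 1 held a CArG box (25.0%) and 2 the short site (50%), and of the 2 that fell and had one, 1 held the short site, 1 the full element and 1 the AP-1 site (50% each). Both strands were searched. Each gene of these sets was read from 1 window, so other starts and more distant sequence were not covered. These matches describe letters in a window, with no binding measured.

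The change from control was broad but mostly small, with a few large rises and more large falls. Of 15856 tested probe sets, 1775 were higher at 2 h than in control (11.2%) and 1816 lower (11.5%), past a Benjamini-Hochberg adjusted p of 0.05 in limma. Among the 9002 genes, each read by 1 probe set, 1000 were higher (11.1%) and 1246 lower (13.8%), and these shares are the background for the gene lists that follow. Rose, fell, higher and lower mean relative to control throughout, unless another group is named. The median absolute log2 change of the probe sets that passed was 0.344, while the median change of all tested probe sets was 0.005. At least 2-fold differences ran mostly downward, with 54 probe sets higher (0.341%) and 170 lower (1.07%). The number of higher probe sets was 1143 without 2 h replicate 1 and 997 with the mesenchymal marker level in the fit. That level, the mean log2 intensity of 16 genes of connective tissue cells, was lower on every 2 h array (7.23 to 7.47) than on every control array (7.68 to 8.08). RNA came from whole cultures, so fewer cells of a type and less RNA per cell cannot be told apart. The 3 values of each group did not overlap for 6182 probe sets (39.0%).

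Ret and 4 other receptor and proximal signalling genes were lower at 2 h, while the list as a whole was centred on no change. Of 18 tested members of a list of 29, 1 rose, 5 fell and 12 did not pass, with a median log2 change of 0.00, against 11.1% higher and 13.8% lower of all genes. Ret, the signalling receptor of GDNF, had intensities of 2686, 2559 and 2645 at 2 h, against 4475, 4033 and 4394 in control. The groups were far apart, and the 2 h arrays sat below the withdrawn cells too, whose mean was 3779. The log2 change from control was −0.71 ± 0.04 (SE, n = 3 each), or 1.63-fold lower, with an adjusted p of 2.69e-08. Gfra2, a co-receptor for the related ligand neurturin, had 84.26, 82.03 and 91.05 at 2 h, against 132.2, 143.9 and 144.5 in control, again without overlap (−0.71 ± 0.12, adjusted p = 7.84e-04). Its mean after withdrawal alone was 89.6. The main GDNF co-receptor gene Gfra1 was below the low-value level and was not tested.

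Among the kinases downstream, Pik3cd, a PI3K catalytic subunit, was lower on both of its tested probe sets, by unequal amounts. Its values were 50.01, 50.04 and 49.78 at 2 h, against 120.1, 94.15 and 124.8 in control on the brighter one (−1.17 ± 0.16, adjusted p = 8e-05), and the dimmer one gave −0.60 (adjusted p = 0.00124). Src, a kinase that GDNF signalling uses in mouse spermatogonia, had 38.86, 35.45 and 41.59 at 2 h, against 66.32, 52.69 and 48.45 in control (−0.52 ± 0.11, adjusted p = 0.00426). The remaining members past the threshold were the kinase gene Akt1, lower by a log2 change of −0.29 (adjusted p = 0.00719), and the adaptor gene Frs2, higher by 0.16 (adjusted p = 0.0178), a rise that did not pass without control replicate 1, 2 h replicate 1 or 2 h replicate 3. The last pair are named because of their values, as the fifth and sixth of 6 called members.

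Egr2 and Fosb had the largest rises among the named genes, and both are immediate early genes. Of 24 tested members of a list of 35, 14 rose (58.3%) and 4 fell (16.7%), against 11.1% and 13.8% of all genes. The other 6 did not pass, and the median log2 change was 0.39, against −0.006 over all tested genes. Groups did not overlap for 19 of the 24, against 39.0% of all probe sets. Egr2, a zinc finger factor of the EGR family, had 357.8, 320.3 and 313.1 at 2 h, against 13.76, 15.41 and 19.52 in control. It was near or under the low-value level of 16 on every control array and clearly on in every 2 h array. Its means were 330.4 ± 24.0 at 2 h and 16.23 ± 2.97 in control (SD, n = 3 each), a 20.5-fold rise with a log2 change of 4.36 ± 0.23 and an adjusted p of 6.21e-09. With values under 16 set to 16 the fold was 19.3.

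**Figure D1:**
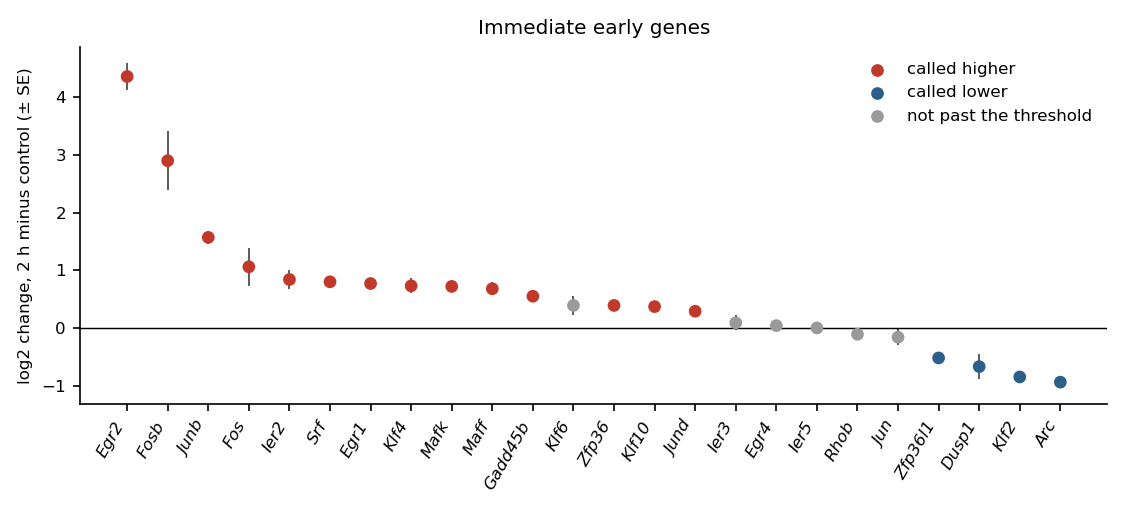
Log2 change of the 24 tested immediate early genes at 2 h of GDNF replacement relative to control (vertical axis, points with SE bars, 3 arrays a group), ordered from the largest rise to the largest fall. Egr2 stands highest at 4.36 and Arc lowest at −0.94, and grey points did not pass the adjusted p of 0.05.

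Fosb, a partner in AP-1 dimers, had 781.7, 632.3 and 624.1 at 2 h, against 88.27, 52.3 and 161.1 in control. All 2 h arrays were several-fold over the highest control array (2.90 ± 0.51, 7.46-fold, adjusted p = 8.24e-04). The control arrays spread widely, and with the mesenchymal marker level in the fit the log2 change was 1.69 (adjusted p = 0.0192). Junb, another AP-1 partner, had 628.3, 811.8 and 819.1 at 2 h, against 221.9, 253.0 and 284.5 in control (1.57 ± 0.11, 2.97-fold, adjusted p = 1.42e-07). Fos itself had 4194, 3394 and 3117 at 2 h, against 1732, 1135 and 2503 in control, a 2.08-fold rise (1.06 ± 0.33, adjusted p = 0.0331) whose groups did not overlap. Leaving out 2 h replicate 1, 2 or 3 or control replicate 1 or 2 took its adjusted p to between 0.0538 and 0.136, and with the mesenchymal marker level in the fit its log2 change was 0.22 (adjusted p = 0.648).

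Egr1, the EGR family member with the brightest probe set here, was already high in cells kept in GDNF. Its values were 5982, 6009 and 6363 at 2 h, against 3739, 3439 and 3607 in control (0.77 ± 0.05, 1.7-fold, adjusted p = 1.05e-07). Serum response factor itself, Srf, which binds CArG boxes, had 934.1, 973.2 and 1012 at 2 h, against 565.0, 561.4 and 554.5 in control (0.80 ± 0.07, adjusted p = 1.38e-06). The other members that rose were Ier2, Klf4, Mafk, Maff, Gadd45b, Zfp36, Klf10 and Jund, with log2 changes between 0.29 and 0.84.

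The 4 members that fell, named after their values were seen, were Arc, Klf2, Dusp1 and Zfp36l1. Dusp1 was nearest the threshold (−0.67, adjusted p = 0.0357). The count of falls was 3 without control replicate 3 or without 2 h replicate 1, 2 or 3. Arc, known best as a neuronal activity gene, had 46.21, 41.63 and 37.64 at 2 h, against 77.6, 74.55 and 88.85 in control (−0.94 ± 0.10, adjusted p = 6.34e-06). Klf2, a Krüppel-like factor, had 738.0, 718.8 and 656.9 at 2 h, against 1324, 1140 and 1344 in control (−0.85 ± 0.08, adjusted p = 4.54e-06). Neither pair of groups overlapped. Arc means in the withdrawn, 4 h and 8 h groups were 45.86, 44.31 and 45.76. Jun, the classical partner of FOS, did not pass the threshold, with a log2 change of −0.16 (adjusted p = 0.46).

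Feedback inhibitors and outputs of the ERK pathway moved in both directions. Of 13 tested members of a list of 21, 5 rose (38.5%) and 4 fell (30.8%), against 11.1% and 13.8% of all genes. The median log2 change was 0.19, and 2 fell without 2 h replicate 2. Dusp5, a phosphatase that inactivates nuclear ERK, had 315.6, 342.3 and 362.5 at 2 h, against 174.0, 110.1 and 139.2 in control (1.29 ± 0.14, 2.45-fold, adjusted p = 1.11e-05). Dusp6, its cytoplasmic counterpart, was above control by far less, with 4273, 4224 and 4402 at 2 h, against 3828, 3445 and 3783 in control (0.22 ± 0.04, adjusted p = 7.2e-04). A second Dusp6 probe set gave 0.38 (adjusted p = 0.0516). Errfi1, an inhibitor of EGF receptors, was 1.28-fold higher than control (0.36 ± 0.06, adjusted p = 4.82e-04). Its withdrawal mean of 1420 lay near its 2 h mean of 1486. For Dusp5 and Dusp6 the withdrawal means of 122.1 and 2305 were well under the 2 h values.

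Spry4, a Sprouty inhibitor of RAS-ERK signalling, was lower than control. It had 258.3, 248.1 and 229.4 at 2 h, against 431.1, 452.4 and 446.3 in control (−0.86 ± 0.08, 1.81-fold lower, adjusted p = 3.32e-06), with no overlap. Its mean after withdrawal was 150.1, so the 2 h level lay between the withdrawn and the control level. The Sprouty family was not uniform, since Spry2 rose by 0.24 (adjusted p = 0.0166) and Spry1 changed by −0.26 (adjusted p = 0.0469).

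The EGF-type ligand gene Hbegf, the activin gene Inhba and Vegfa, all among the 12 largest rises, encode secreted factors. Other ligand genes (Dhh, Bmp4, Bmp7, Tgfb1 and Jag1) were lower than in control. Of these, Tgfb1 had a 2 h mean of 420.0, above its withdrawal mean of 287.5, and Bmp7 one of 334.6, below its own of 473.0. Hbegf, an EGF receptor ligand shed from the cell surface, had 32.4, 38.47 and 40.15 at 2 h, against 5.134, 7.106 and 4.265 in control. Control values were all under 16, where the background estimate decides the level, so the 6.85-fold rise (2.78 ± 0.29, adjusted p = 6.58e-06) became 2.3-fold with values under 16 set to 16. Hbegf was 1 of only 3 tested members of an EGF family list of 14. The others did not pass, among them Nrg1, a ligand of ERBB receptors, with a log2 change of −0.31 (adjusted p = 0.175). Inhba, the subunit of activin A, had 182.0, 235.9 and 273.4 at 2 h, against 73.4, 96.57 and 31.43 in control (1.91 ± 0.40, 3.75-fold, adjusted p = 0.00308). Vegfa, the angiogenic growth factor, had 522.3, 645.4 and 719.3 at 2 h, against 208.4, 223.4 and 207.6 in control (1.55 ± 0.12, adjusted p = 5.22e-07).

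Of 24 tested BMP, activin and TGF-beta genes in a list of 35, 7 rose (29.2%) and 6 fell (25.0%), against 11.1% and 13.8% of all genes. Those that rose included intracellular regulators of SMAD signalling. Smad7, an inhibitory SMAD, had 100.4, 95.33 and 114.3 at 2 h, against 39.95, 37.17 and 32.25 in control (1.5 ± 0.16, 2.84-fold, adjusted p = 9.01e-06). Skil, a co-repressor of SMADs, had 6105, 5522 and 5673 at 2 h, against 3294, 3649 and 3469 in control (0.73 ± 0.05, adjusted p = 2.21e-07). Id1, an inhibitor of basic helix-loop-helix factors and a BMP target, had 552.2, 643.7 and 698.6 at 2 h, against 365.6, 382.6 and 352.7 in control (0.78 ± 0.08, adjusted p = 9.88e-06). Its relative Id3 was lower than control, with a log2 change of −0.53 (adjusted p = 0.00109). Both genes stood above the withdrawn cells, whose means were 240.5 for Id1 and 362.6 for Id3, against 2 h means of 631.5 and 593.4. The ligand genes Bmp7 and Bmp4 were lower, by log2 changes of −0.51 and −0.63.

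Notch pathway genes showed a rise in a repressor target and opposite changes of both Jagged ligands. Of 9 tested members of a list of 18, 4 rose (44.4%) and 1 fell (11.1%), against 11.1% and 13.8% of all genes. However, 2 rose without 2 h replicate 3, and 2 fell without control replicate 1 or 2. Hes1, a transcriptional repressor induced by Notch and by other signals, had 1786, 1743 and 1823 at 2 h, against 701.0, 823.3 and 779.9 in control (1.22 ± 0.07, 2.33-fold, adjusted p = 9.54e-09). Hes6, which opposes HES1, had 247.6, 261.1 and 289.5 at 2 h, against 163.7, 161.0 and 195.2 in control (0.62 ± 0.13, adjusted p = 0.00378). Among the ligands, Jag1 fell (−0.44 ± 0.09, adjusted p = 0.00184) and Jag2 rose (0.32 ± 0.08, adjusted p = 0.0111). The withdrawal mean of Jag2 was 329.7, above its 2 h mean of 275.8. The Jag2 call was lost without 2 h replicate 3 (adjusted p = 0.052) and with the mesenchymal marker level in the fit (adjusted p = 0.102).

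**Figure D2:**
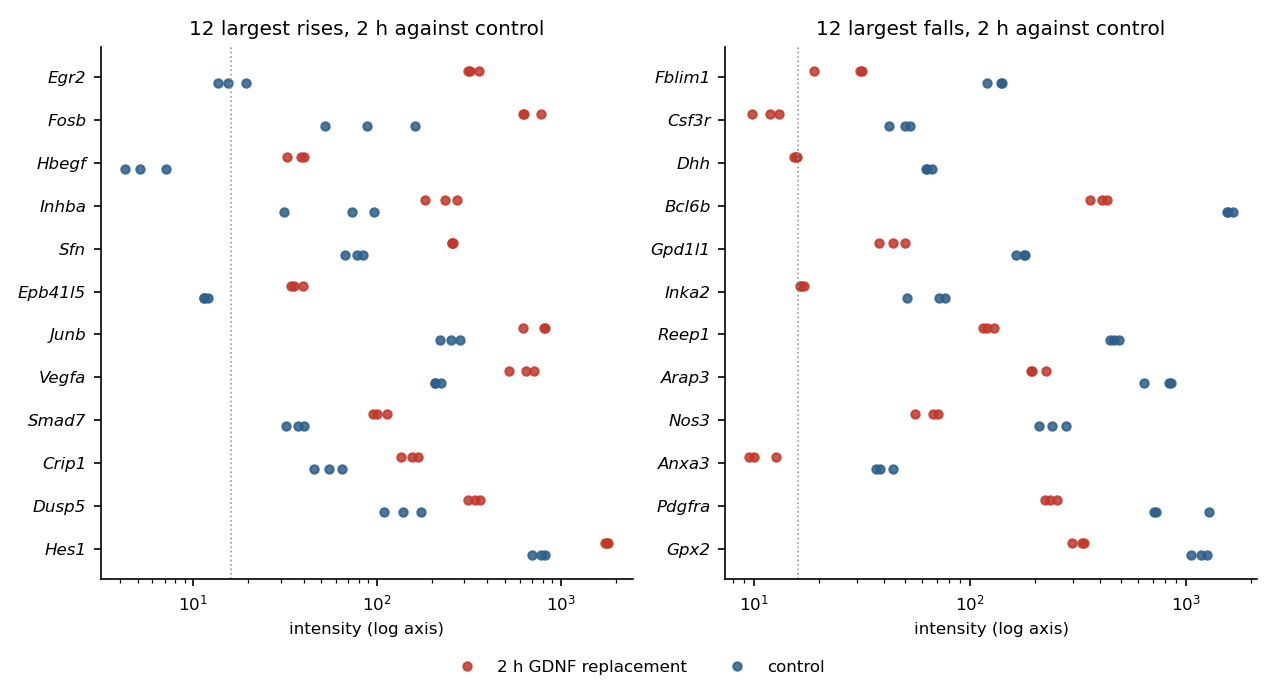
Intensity on every array (log axis) of the 12 genes that rose most and of the 12 that fell most, with the 3 arrays of 2 h GDNF replacement in red above the 3 control arrays in blue. The dotted line marks 16, the low-value level, and the groups do not overlap for any gene because the choice of these genes asked for that.

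The 12 largest rises among named genes had adjusted p between 3.76e-09 and 0.00308 and held, besides those above, Sfn, Epb41l5 and Crip1. Sfn, which encodes 14-3-3 sigma, a binding protein of epithelial cells, had 255.8, 257.2 and 259.5 at 2 h, against 77.77, 67.49 and 84.37 in control (1.76 ± 0.09, 3.38-fold, adjusted p = 3.76e-09). It was lower still after withdrawal, with a mean of 37.64. Epb41l5, a FERM-domain protein of epithelial junctions, had 35.66, 34.12 and 39.83 at 2 h, against 12, 11.45 and 11.53 in control, all under 16, so its 3.13-fold rise became 2.28-fold with values under 16 set to 16 (adjusted p = 1.05e-06 without that floor). Crip1, a small LIM-domain protein, had 167.4, 156.2 and 136.3 at 2 h, against 64.31, 54.64 and 45.73 in control (1.49 ± 0.13, adjusted p = 9.67e-07). Its withdrawal mean of 194.1 lay above both, unlike that of Sfn.

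The 12 largest falls had adjusted p between 4.58e-10 and 1.02e-04. Most of these genes stood at 2 h near the level they had after withdrawal. Fblim1, a filamin-binding LIM protein of cell adhesions, had 31.72, 30.88 and 18.93 at 2 h, against 139.5, 140.9 and 119.5 in control (−2.33 ± 0.18, 5.02-fold lower, adjusted p = 3.75e-07), and its withdrawal mean was 27.86. Dhh, the hedgehog ligand of the testis, had 15.77, 15.27 and 15.7 at 2 h, against 62.78, 66.93 and 63.26 in control (−2.05 ± 0.08, adjusted p = 5.26e-10). Its 2 h values were at the low-value level, and its means stayed between 15.57 and 16.78 in the withdrawn, 4 h and 8 h groups. Gpx2, a glutathione peroxidase that removes peroxides, had 297.6, 328.3 and 335.7 at 2 h, against 1051, 1167 and 1250 in control (−1.85 ± 0.07, 3.6-fold lower, adjusted p = 4.58e-10). Its withdrawal mean was 234.4, below all 2 h arrays.

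Nos3, the endothelial nitric oxide synthase, had 71.42, 67.21 and 55.5 at 2 h, against 279.7, 207.9 and 239.3 in control (−1.90 ± 0.11, adjusted p = 1.97e-08). Arap3, a GTPase-activating protein regulated by PI3K lipids, had 225.1, 193.1 and 191.6 at 2 h, against 832.2, 638.2 and 851.3 in control (−1.92 ± 0.10, adjusted p = 5.01e-09). Reep1, a shaper of the endoplasmic reticulum, had 114.9, 128.9 and 120.5 at 2 h, against 488.1, 443.4 and 462.2 in control (−1.94 ± 0.10, adjusted p = 4.22e-09). These 3 genes showed no overlap, and their withdrawal means of 54.63, 189.3 and 146.6 were also far below control. Gpd1l1, named like a glycerol-3-phosphate dehydrogenase, had 50.13, 43.83 and 37.75 at 2 h, against 176.9, 179.2 and 163.3 in control (−1.99 ± 0.13, adjusted p = 3.62e-08). Inka2, an inhibitor of a PAK kinase, had 17.02, 16.33 and 16.51 at 2 h, against 51.25, 71.63 and 76.26 in control (−1.98 ± 0.15, adjusted p = 3.23e-07).

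Csf3r and Anxa3 were under 16 on every 2 h array, so their folds depend on the background estimate. Csf3r, the receptor of granulocyte colony-stimulating factor, had 11.82, 9.784 and 13.07 at 2 h, against 49.96, 42.15 and 52.54 in control, a 4.18-fold fall (adjusted p = 9.54e-07) that became 3.0-fold with values under 16 set to 16. Anxa3, a calcium-dependent phospholipid-binding protein, had 12.71, 9.523 and 10.05 at 2 h, against 36.7, 44.18 and 38.32 in control, a 3.71-fold fall (adjusted p = 4.17e-07) that became 2.48-fold. Pdgfra, the receptor of platelet-derived growth factor on mesenchymal cells, had 222.2, 233.8 and 253.1 at 2 h, against 729.0, 1282 and 710.5 in control (−1.89 ± 0.26, adjusted p = 1.02e-04). Its withdrawal mean was 777.7, at the control level, which sets it apart from the other falls in this group of 12, whose withdrawal means were all well under control. Pdgfra is itself 1 of the mesenchymal markers, and with their mean in the fit its log2 change was −1.10 (adjusted p = 4.37e-06).

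Among genes that GDNF is known to regulate in mouse spermatogonia, Bcl6b, Etv5, Tec, Ccnd2, Cxcr4 and Hoxc4 were below control at 2 h, and the immediate early members Egr2 and Fos were above it. Of 16 listed genes 12 were tested, and 2 rose, 6 fell and 4 did not pass, with a median log2 change of −0.44. Without any one array other than control replicate 3, 1 rose, Egr2. Lhx1, Egr3, Tspan8 and Eomes were below the low-value level. Bcl6b, a transcriptional repressor, had 360.6, 431.9 and 407.1 at 2 h, against 1571, 1547 and 1647 in control (−1.99 ± 0.11, 3.98-fold lower, adjusted p = 9.24e-09), and 3 other probe sets gave −2.03 to −2.10. Its withdrawal mean was 163.9, so the 2 h level was above the withdrawn cells and well short of control. Etv5, an ETS factor, had 457.7, 455.0 and 506.3 at 2 h, against 992.6, 633.2 and 672.1 in control (−0.67 ± 0.13, adjusted p = 0.00165), near its withdrawal mean of 514.3. Etv4, its close relative, had 2201, 2181 and 2191 at 2 h, against 2777, 2221 and 2622 in control (−0.21 ± 0.08, adjusted p = 0.0789). That difference did not pass, although a second Etv4 probe set did (−0.48, adjusted p = 2.31e-04), as did the first without control replicate 2 (adjusted p = 0.0107).

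Tec, a non-receptor tyrosine kinase, had 322.3, 285.7 and 310.7 at 2 h, against 564.2, 619.8 and 661.5 in control (−1.01 ± 0.07, adjusted p = 2.23e-07). Ccnd2, the cyclin D2 gene that drives entry into S phase, had 497.3, 469.2 and 480.9 at 2 h, against 707.4, 809.5 and 852.6 in control (−0.71 ± 0.11, adjusted p = 3.21e-04). Cxcr4, the receptor of the chemokine CXCL12, had 48.68, 50.74 and 55.49 at 2 h, against 89.56, 81.29 and 82.27 in control (−0.71 ± 0.11, adjusted p = 2.42e-04), and its other probe sets gave −1.20 and −1.16. Tec and Ccnd2 had withdrawal means of 271.1 and 406.2, under their 2 h values. Their 2 h minus withdrawal differences did not pass (adjusted p = 0.0999 and 0.0933). The withdrawal mean of Cxcr4 was 109.4, above both groups. Pou3f1, Id4 and Mycn did not pass the threshold, with log2 changes of 0.26, 0.32 and −0.06. For Id4, an inhibitor of differentiation in spermatogonia, the groups did not overlap, with 211.4, 209.1 and 225.5 at 2 h, against 168.7, 176.5 and 173.2 in control (adjusted p = 0.157). It passed when the 6 arrays were fitted alone (adjusted p = 0.0148), whereas with the mesenchymal marker level in the fit it was 0.12 (adjusted p = 0.725), and its other probe sets gave 0.51 (adjusted p = 0.0549) and −0.05 (adjusted p = 0.8).

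**Figure D3:**
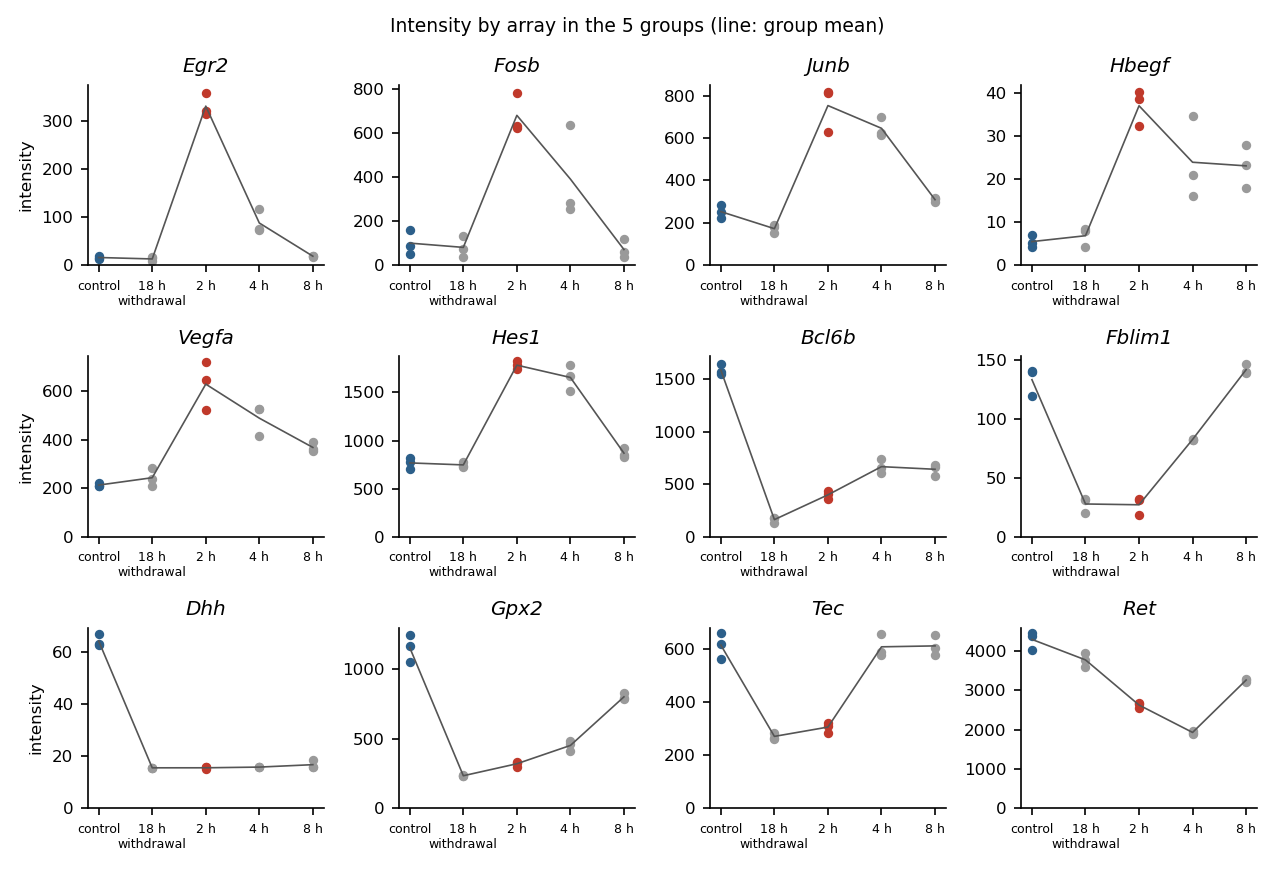
Intensity of 12 genes on every array in the 5 groups (control in blue, 2 h in red, others in grey, lines through group means, vertical axes from 0). Egr2 peaks at 2 h with a mean of 330.4 and is at 18.91 at 8 h, while Bcl6b stands at 399.9 at 2 h and 643.4 at 8 h, under its control mean of 1588.

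The 12 genes furthest above control at 2 h differed in what was left of that at 8 h. Egr2 means were 16.23 in control, 13.2 after withdrawal, 330.4 at 2 h, 87.81 at 4 h and 18.91 at 8 h. Junb means were 253.1, 172.8, 753.1, 646.0 and 309.6 in that order. Hes1 means were 768.1, 747.4, 1784, 1656 and 869.5. All 3 genes were highest at 2 h in mean level, and at 8 h none differed from control past the threshold (adjusted p = 0.571, 0.0994 and 0.0974). Fosb, Epb41l5 and Dusp5 did not differ from control at 8 h past the threshold either (adjusted p = 0.587, 0.854 and 0.191). The other 6 of the 12 largest rises were still higher than control at 8 h. Hbegf was 4.22-fold higher (adjusted p = 2.81e-04), on the scale without a floor at 16, and Inhba 3.15-fold higher (adjusted p = 0.0135). Sfn, Crip1, Vegfa and Smad7 were 1.97-, 1.91-, 1.73- and 1.7-fold higher. Crip1 was highest after withdrawal, with a mean of 194.1, and then lower at each time, at 153.3, 142.4 and 103.7 at 2 h, 4 h and 8 h. For Sfn, Inhba and Smad7 the mean was higher at 4 h (635.9, 240.5 and 141.8) than at 2 h (257.5, 230.4 and 103.4).

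A comparison that shares no array with this one is 4 h or 8 h of replacement against withdrawal. All calls come from the same fit and share the spread estimate of each probe set, so they are not fully independent. Of the 54 probe sets at least 2-fold higher at 2 h than in control, 29 (53.7%) were also higher at 4 h than after withdrawal, where 14.6% of all tested probe sets were, and 20 (37.0%) were higher at 8 h, where 9.62% were. These made up 1.25% of the 2314 higher at 4 h and 1.31% of the 1526 higher at 8 h. Of the 170 at least 2-fold lower, 30 (17.6%) were lower at 4 h than after withdrawal, against 16% of all, and 6 (3.53%) at 8 h, against 15.4%. Others of the 170 stood above the withdrawn level later, with 52 (30.6%) higher at 4 h and 81 (47.6%) higher at 8 h. So at 8 h the probe sets at least 2-fold lower than control at 2 h held 81 that stood above the withdrawn cells and 6 that stood below them. Over all 1775 higher probe sets the shares were nearer the background, with 576 (32.5%) higher at 4 h and 218 (12.3%) at 8 h. In the opposite direction, 218 of the 1775 (12.3%) were lower at 4 h than after withdrawal, against 16% of all, and 377 (21.2%) were lower at 8 h, against 15.4% of all, which is more than were higher at 8 h.

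HOX and TALE homeobox genes, which set positional identity, were lower than control where they differed strongly. Of 12 tested members of a list of 39, 1 rose (8.33%) and 4 fell (33.3%), against 11.1% and 13.8% of all genes, with a median log2 change of −0.25. Hoxc4 had 930.8, 928.5 and 946.0 at 2 h, against 1699, 1649 and 1763 in control (−0.87 ± 0.05, adjusted p = 1.66e-08), though a second probe set did not pass (−0.20, adjusted p = 0.169). Hoxc5 had 64.04, 57.44 and 62.88 at 2 h, against 184.8, 109.3 and 155.9 in control (−1.26 ± 0.21, adjusted p = 6.39e-04). Meis1, a TALE cofactor of HOX proteins, had 51.25, 52.83 and 51.49 at 2 h, against 132.4, 256.4 and 138.8 in control (−1.69 ± 0.27, adjusted p = 3.42e-04). The withdrawal means of Hoxc4 and Hoxc5, 459.5 and 46.55, lay under their 2 h values, though for Hoxc5 2 h minus withdrawal did not pass (adjusted p = 0.136). The withdrawal means of Meis1 and Hoxa5, 165.9 and 60.58, lay above their 2 h values and near the control means of 175.9 and 54.4. Control replicate 2, the highest for Meis1, was also the highest for mesenchymal markers. With that marker level in the fit the log2 change of Meis1 was −0.94 (adjusted p = 0.00135) and that of Hoxa5 was −0.64 (adjusted p = 0.113), against −1.54 (adjusted p = 0.00456) for Hoxa5 without it.

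Sterol synthesis genes were more often higher than lower. Of 21 tested members of a list of 27, 10 rose (47.6%) and 2 fell (9.52%), against 11.1% and 13.8% of all genes. The median log2 change was 0.09. Idi1, which interconverts the isoprenoid building blocks, had 5818, 5841 and 5665 at 2 h, against 3054, 3247 and 3194 in control (0.87 ± 0.05, 1.82-fold, adjusted p = 8.53e-09), and its withdrawal mean was 2543. Msmo1, a sterol demethylation enzyme, had 2078, 2104 and 2350 at 2 h, against 1450, 1576 and 1501 in control (0.53 ± 0.05, adjusted p = 7.01e-06). Sqle, the squalene epoxidase, had 2295, 2261 and 2282 at 2 h, against 1591, 1725 and 1590 in control (0.48 ± 0.06, adjusted p = 2.71e-05). Groups did not overlap for these 3. Cyp51, the lanosterol demethylase, rose less (0.29 ± 0.04, adjusted p = 8.6e-05), and a second probe set did not pass (0.12, adjusted p = 0.432). The members that fell were Ebp, a sterol isomerase (−0.57), and Insig2, a sterol-sensing inhibitor of SREBP (−0.54).

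Glycolysis and hypoxia genes leaned the other way. Of 22 tested members of a list of 28, 2 rose (9.09%) and 10 fell (45.5%), against 11.1% and 13.8% of all genes. The 2 that rose were Vegfa and Ankrd37, and the median log2 change was −0.20. Without control replicate 1 or 2, or 2 h replicate 2 or 3, 1 rose. Epas1, the hypoxia-inducible factor HIF-2 alpha, had 69.9, 75.67 and 75.28 at 2 h, against 137.4, 156.9 and 165.0 in control (−1.05 ± 0.14, adjusted p = 7.48e-05). Pgk1, a glycolytic kinase, had 1378, 1308 and 1334 at 2 h, against 1615, 1857 and 1861 in control (−0.41 ± 0.05, adjusted p = 8.12e-05). Pgam1, the next enzyme in the pathway, had 5691, 5437 and 5545 at 2 h, against 6442, 6590 and 6854 in control (−0.25 ± 0.03, adjusted p = 1.07e-04). So the hypoxia-inducible Vegfa rose while most other members that passed fell.

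Among cell cycle genes, G1 regulators changed by log2 −0.71 (Ccnd2, given above) to 0.58, and replication and mitosis genes by −0.36 to 0.27. Among 18 tested G1 regulators of 24, 4 rose (22.2%) and 7 fell (38.9%), against 11.1% and 13.8% of all genes. The falls numbered 3 without 2 h replicate 1 or 2 and 4 without 2 h replicate 3 or control replicate 1 or 3, nearer the 13.8% of all genes. Cdkn1c, the CDK inhibitor p57, had 168.3, 173.8 and 161.2 at 2 h, against 111.2, 120.1 and 105.5 in control (0.58 ± 0.08, adjusted p = 1.3e-04). Its withdrawal mean was higher again, at 220.3. Cdkn1a, the inhibitor p21, was 1.27-fold higher (adjusted p = 0.00475), a call lost with the mesenchymal marker level in the fit (adjusted p = 0.057) and not made by a second, dimmer probe set (adjusted p = 0.615). Cdk4, the kinase that D cyclins activate, was 1.15-fold lower (adjusted p = 0.00152). Among 31 tested replication and mitosis genes of 36, 3 rose (9.68%) and 8 fell (25.8%), with a median of −0.06. Cdt1, a factor that licenses replication origins, had 1535, 1446 and 1528 at 2 h, against 1944, 1954 and 1878 in control (−0.36 ± 0.04, adjusted p = 1.99e-05), and Mcm3 of the replicative helicase was lower by a log2 change of −0.31 (adjusted p = 3.42e-04). The mitotic kinases went apart, Aurka by 0.27 (adjusted p = 0.00432) and Aurkb by −0.31 (adjusted p = 0.00145). Of 37 tested ribosome biogenesis genes of 38, 1 rose, the processome member Utp15 (0.42, adjusted p = 0.00249), and 0 fell in limma, against 11.1% and 13.8% of all genes, and 2 rose without control replicate 3. At an unadjusted p under 0.05, 3 were higher and 2 lower, and a second Utp15 probe set did not pass (adjusted p = 0.138).

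Surface and regulatory genes of undifferentiated spermatogonia such as Epcam, Cd9 and Bcl6b fell, and most tested genes of differentiating or meiotic germ cells rose. Of 13 tested undifferentiated members of 29, 1 rose (7.69%, Sall4) and 6 fell (46.2%), against 11.1% and 13.8% of all genes. The other 6 did not pass, and the median log2 change was −0.08. Some members sit in other lists too, such as Bcl6b, Etv5 and Ret. Epcam, an epithelial adhesion molecule of spermatogonia, had 7625, 7981 and 8147 at 2 h, against 11240, 10520 and 11220 in control (−0.47 ± 0.04, adjusted p = 1.79e-06). Cd9, a tetraspanin of the stem cell surface, had 5145, 4977 and 5239 at 2 h, against 6564, 6583 and 7202 in control (−0.40 ± 0.05, adjusted p = 4.98e-05). In the differentiating list 8 of 22 members were tested, and 6 rose (75.0%) and 0 fell in limma. The median was 0.21, and 7 were higher and 0 lower at an unadjusted p under 0.05. The 4 general germ cell markers described at the end, Piwil2 and Sall4 of these lists among them, were also higher on average on every 2 h array than on every control array. Kit, the receptor that marks differentiating spermatogonia, had 151.5, 153.8 and 144.8 at 2 h, against 94.94, 96.03 and 95.86 in control (0.65 ± 0.12, adjusted p = 0.0011), and its withdrawal mean was 165.4. Sycp2, of the synaptonemal complex, had 1650, 1491 and 1512 at 2 h, against 1130, 1176 and 1079 in control (0.46 ± 0.07, adjusted p = 2.69e-04). The other members that rose, among them Dmrt1 and Piwil2, changed by 0.18 to 0.26 on the log2 scale.

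**Figure D4:**
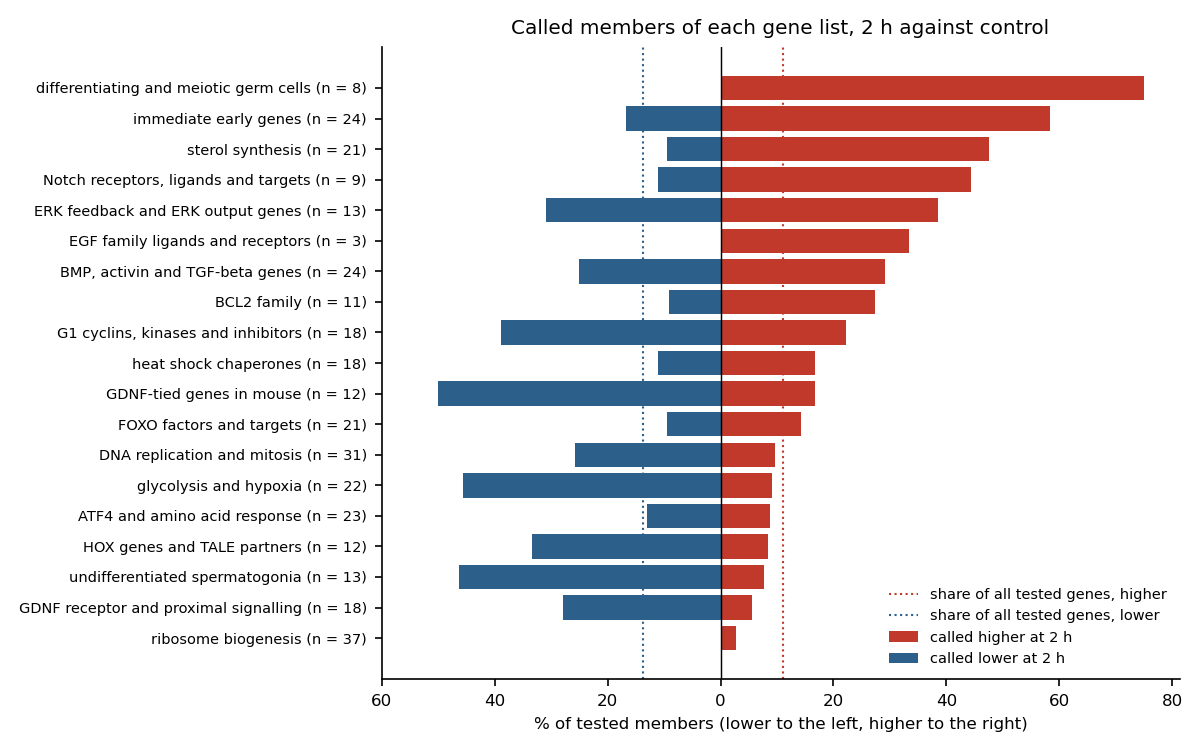
Share of tested members of each gene list that were lower (bars to the left) or higher (bars to the right) at 2 h than in control, in percent, with the number tested in brackets. Dotted lines mark the shares over all 9002 genes, 13.8% lower and 11.1% higher, and the immediate early, sterol and differentiating lists reach furthest to the right of theirs among lists with over 5 tested members.

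Stress and survival genes changed by gene rather than by list. Of 21 tested FOXO factors and targets of 26, 3 rose (14.3%) and 2 fell (9.52%), near the 11.1% and 13.8% of all genes. The count of falls was 1 without any one array other than control replicate 3. Foxo3, a factor that AKT keeps out of the nucleus, had 417.1, 472.9 and 374.1 at 2 h, against 225.7, 216.3 and 203.1 in control (0.97 ± 0.08, 1.95-fold, adjusted p = 8.21e-07), below its withdrawal mean of 630.0. Cited2, a transcriptional co-regulator, had 209.7, 251.0 and 272.6 at 2 h, against 549.2, 497.5 and 463.2 in control (−1.05 ± 0.10, adjusted p = 1.76e-06). Of 11 tested BCL2 family genes of 18, 3 rose (27.3%) and 1 fell (9.09%). Bik, a BH3-only promoter of cell death, had 399.3, 360.6 and 330.9 at 2 h, against 222.5, 217.1 and 189.3 in control (0.79 ± 0.10, adjusted p = 3.46e-05), and its withdrawal mean of 560.7 was higher again. Bbc3, the BH3-only gene PUMA, rose by 0.48 (adjusted p = 0.00174). The changes of Mcl1 (0.18, adjusted p = 0.0128) and Bcl2l2 (−0.32, adjusted p = 0.0135), which protect cells, were lost with the mesenchymal marker level in the fit (adjusted p = 0.0611 and 0.126). The Mcl1 call was also lost without control replicate 1 (adjusted p = 0.0576) or 2 h replicate 3 (0.0647), and that of Bcl2l2 without control replicate 2 (0.0601) or 2 h replicate 2 (0.0644).

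Of 18 tested heat shock chaperones of 22, 3 rose (16.7%) and 2 fell (11.1%), near the 11.1% and 13.8% of all genes. The count of falls was 1 without control replicate 2, 2 h replicate 1 or 2 h replicate 2. Hspa1a, the inducible HSP70, had 87.6, 85.5 and 72.56 at 2 h, against 44.99, 32.89 and 47.86 in control (0.98 ± 0.17, adjusted p = 8.53e-04), under its withdrawal mean of 244.7. Hspb1, a small heat shock protein, had 819.8, 860.8 and 830.3 at 2 h, against 1559, 1409 and 1691 in control (−0.89 ± 0.08, adjusted p = 2.05e-06). Of 23 tested ATF4 and amino acid response genes of 26, 2 rose and 3 fell (1 without 2 h replicate 1), shares no higher than the background. Chac1, which degrades glutathione, had 17.83, 23.06 and 15.95 at 2 h, against 40.97, 39.05 and 46.83 in control (−1.17 ± 0.18, adjusted p = 2.46e-04), while the factors Atf4 and Ddit3 rose by 0.26 and 0.42 (adjusted p = 8.27e-04 and 0.00806).

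Germ cell identity rests here on 4 tested markers of 12, Tdrd1, Piwil2, Sall4 and Tex15, whose mean log2 intensity was 11.3, 11.26 and 11.27 at 2 h, against 11.05, 10.98 and 11.06 in control. The spermatogonial markers Lin28a and Gfra1 were below the low-value level. Mesenchymal markers were lower at 2 h, with a mean log2 over 16 tested genes of 22 of 7.23, 7.34 and 7.47, against 7.76, 8.08 and 7.68 in control, and no overlap. Their summed intensity ran from 3204 to 3632 at 2 h, against 4636 to 6003 in control. Arrays after withdrawal spread from 7.32 to 8.05. Of the 16, 0 rose and 4 fell in limma (Pdgfra, Dcn, Fbn1 and Fstl1), 0 and 10 at an unadjusted p under 0.05, and the count of falls was 2 without control replicate 1 or 2 or 2 h replicate 1, and ran from 2 to 9 over all settings. The markers Col6a1, Col6a2, Pdgfrb, Lum, Postn and Lox were below the low-value level.

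**Figure D5:**
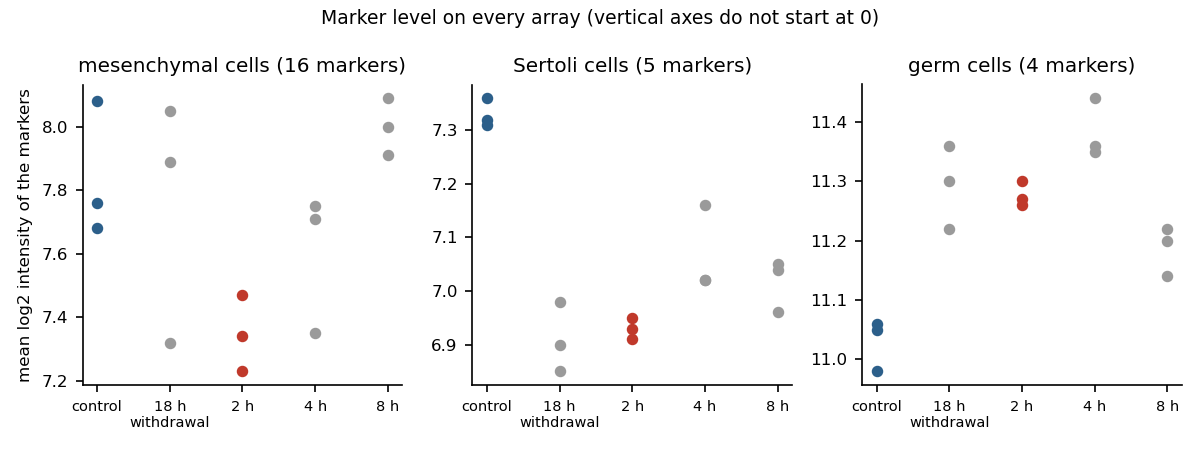
Mean log2 intensity of the tested markers of mesenchymal, Sertoli and germ cells on every array (vertical axes do not start at 0), with control arrays in blue, 2 h arrays in red and the other groups in grey. Mesenchymal markers are at 7.23 to 7.47 at 2 h and 7.68 to 8.08 in control, and the germ cell markers at 11.26 to 11.3 at 2 h and 10.98 to 11.06 in control.

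The mesenchymal marker level was lower on the 2 h arrays, where Pdgfra, Meis1 and Hoxa5 were also lower and Fos, Fosb and Inhba higher. Among the control arrays Inhba was highest (96.57) where that level was highest (8.08) and lowest (31.43) where it was lowest (7.68). Fos and Fosb went the other way there. With the marker level in the fit the log2 changes of Fos, Fosb and Inhba were 0.22, 1.69 and 3.03, against 1.06, 2.90 and 1.91 without it. The part of other cells in these results was not tested. Sertoli cell markers were at 6.91, 6.93 and 6.95 at 2 h, against 7.31, 7.32 and 7.36 in control over 5 tested genes, with Dhh among them. Without Dhh the remaining 4 (Wt1, Rhox5, Clu and Cldn11) were at 7.64, 7.67 and 7.69 at 2 h, against 7.65, 7.64 and 7.71 in control, which overlap. Of 12 Leydig and peritubular markers 1, Acta2, was tested, and of 13 immune and blood markers 1, Cd3e.

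RNA quality measures differed too, with no overlap between the groups for GAPDH, hexokinase and 5S rRNA, and overlap for beta-actin. The GAPDH 3′ minus 5′ log2 difference was −0.266 ± 0.011 at 2 h and −0.197 ± 0.010 in control, and that of hexokinase 2.243 ± 0.106 at 2 h and 2.496 ± 0.052 in control (SD, n = 3 each). For beta-actin it was 2.037 ± 0.075 at 2 h and 1.991 ± 0.088 in control. The 5S rRNA probe set was at 10.716 ± 0.024 at 2 h and 10.302 ± 0.067 in control on the log2 scale. The part of these differences in the gene changes was not tested.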

How the data were processed

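Total RNA of 15 cultures was hybridised to single-colour arrays. The intensities deposited by the authors are probe set values on a linear scale, read as linear from their range. GCRMA and Partek 6.3 are named per the submitters' processing notes, without role or order. GCRMA in general models background by probe sequence and fits arrays jointly, which bears most on low values.

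The analysis used log2 intensities as deposited, without another normalization. Of 31099 probe sets, 57 controls were left out, and 15856 with log2 of at least 4 (intensity 16) on at least 3 of 15 arrays were tested with limma 3.58.1 in R 4.3.3 (lmFit, eBayes with trend). All 15 arrays shared the spread (10 residual degrees of freedom, median residual SD 0.102 log2). Adjusted p-values are Benjamini-Hochberg over all tested probe sets, with a threshold of 0.05. On simulated data for this comparison, with 15856 probe sets and 200 changed, 32%, 70%, 94% and 100% were recovered at log2 changes of 0.25, 0.5, 1 and 2, and 7 of 155 calls were false. The simulated noise was independent between probe sets, and far fewer probe sets were changed than passed here. The simulated shares therefore need not hold for these arrays. The number of arrays limits precision. Per array, 50.1% to 50.4% of probe sets reached 16.

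Names came from the platform annotation, updated through a RefSeq table (GRCr8). A single symbol was given for 20832 probe sets (20764 matched the table), several for 436 and none for 9831. Where several probe sets of a gene were tested, the brightest on average stands for it, and a member is counted as tested only where such a probe set passed the filter, so counts over tested members leave out the others. Named genes are the 12 largest rises and the 12 largest falls among called probe sets with no overlap between groups and, in the higher group, a mean log2 of at least 5, all tested GDNF-tied genes, Ret, and up to 4 called members per list (up to 2 as values where fewer were called). Other genes named in the text were picked after their values were seen. The comparison, its lists and its markers were chosen with earlier results of these data known. The alternatives were other filters, floors, normalizations, weights, a replicate block, the mesenchymal marker mean as a covariate, the 6 arrays alone and each array left out.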

Additional observations from a re-analysis of the deposited data

Results flagged for a closer look

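For 5 of the named genes the difference from control had opposite signs at 8 h and at 2 h of replacement. Both differences passed the threshold. The direct limma comparison of 8 h with 2 h is the difference of these effects. Its passing follows from how the genes were chosen and adds no support, so it is given for its size. Idi1, the isoprenoid isomerase, was below control at 8 h (log2 −0.18, adjusted p = 0.0206) and above it at 2 h (0.87), and the 8 h minus 2 h difference was −1.05 ± 0.05 (adjusted p = 2.51e-09). Sqle stood at −0.30 at 8 h and 0.48 at 2 h relative to control, with a difference of −0.78 ± 0.06 (adjusted p = 2.55e-07). Cyp51 stood at −0.25 at 8 h and 0.29 at 2 h, with a difference of −0.54 ± 0.04 (adjusted p = 1.76e-07). All 3 belong to sterol synthesis. Epas1, which encodes HIF-2 alpha, stood at 1.00 at 8 h and −1.05 at 2 h, and its difference was the widest of the 5, at 2.05 ± 0.14 (adjusted p = 1.17e-07). Bcl2l2, a protective BCL2 family gene, stood at 0.27 at 8 h (adjusted p = 0.0456) and −0.32 at 2 h, with a difference of 0.59 ± 0.08 (adjusted p = 1.46e-04). The differences from control share the control arrays. The 8 h minus 2 h difference does not use them, but the genes were picked by differences that do.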

How the results depend on the processing

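Under 17 alternatives, 79 of 89 named genes had the same call in every setting that gave a value, 10 had another call in at least 1, and no sign turned. For 16 genes some setting gave no value, because a filter removed the probe set. The number of probe sets higher at 2 h was 997 with the mesenchymal marker mean as a covariate, against 1775 without it. Leaving out 1 array gave between 1143 (without 2 h replicate 1) and 1592 (without control replicate 2). At least 2-fold higher probe sets numbered 32 with log2 of at least 6 on 3 arrays, against 54, and that filter tests fewer probe sets. Otherwise the cause was not tested. Same-numbered arrays did not deviate together (correlations 0.0535, −0.0663 and −0.0463), which does not meet the level of 0.1 set for taking the numbers as pairs. Replicate 1 was on the negative side of the first principal component in all 5 groups, so a shared source is not settled. With the replicate block 1845 probe sets were higher and 1933 lower, against 1775 and 1816, Etv4 passed (adjusted p = 0.0497) and 9 mesenchymal markers fell, against 4. Unadjusted, 5556 probe sets were under a p of 0.05. Signal near background limits what can be said of genes under 16 in 1 group, such as Hbegf, Csf3r and Anxa3.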
